A study of Mus musculus with 9 samples.

Results

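The type-I and type-II interferon receptors are each built from 2 subunits, and the levels of the 4 subunit genes were followed here through the cell types of the adult mouse neurogenic niche. The genes were taken by name from the single-cell count matrix, and all 4 of them were found among its 32287 gene IDs. On GRCm38 in GENCODE vM21, Ifngr1 (ENSMUSG00000020009) lies on chromosome 10 from 19591949 to 19610229. The other 3 lie near each other on chromosome 16: Ifnar2 (ENSMUSG00000022971) from 91372783 to 91405589, Ifnar1 (ENSMUSG00000022967) from 91485238 to 91507441 and Ifngr2 (ENSMUSG00000022965) from 91547072 to 91565623. All 4 are protein-coding genes on the + strand.

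Type-I interferons, such as interferon alpha and beta, bind a receptor made of IFNAR1 and IFNAR2, to which the kinases TYK2 and JAK1 are attached. The type-II interferon, interferon gamma, binds IFNGR1, the main ligand-binding chain, which then works together with IFNGR2, and the kinases attached to these chains are JAK1 and JAK2. Both receptors act through STAT transcription factors and switch on interferon-stimulated genes. A cell needs both chains of a receptor to respond in full, and the chains are regulated separately.

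All mice carried TiCY, in which a Cre recombinase under Nr2e1 (Tlx) regulation labels Tlx-positive neural stem cells (NSCs), and the cells they give rise to, with eYFP after tamoxifen. The WT groups carried TiCY alone, and the KO groups also carried targeted alleles of Ifnar1 and Ifngr1 (TiCY-IFNAGRKO). WT young mice were 16 weeks old and had received tamoxifen at 10 weeks. WT old mice were 80 weeks old (tamoxifen at 71 weeks), KO young mice 16 weeks (tamoxifen at 7 weeks) and KO old mice 92 to 105 weeks (tamoxifen at 85 and 98 weeks). For the KO old mice, the labelled ages differ from the ages at tamoxifen plus the chase, and the sources do not resolve this. The chase was 6 weeks in WT young mice and 9 weeks in the others, and tamoxifen was given as 2 daily doses of 1 mg for 3 days. Each group was 2 mice in 1 droplet reaction with 3′ counting, so that group and reaction cannot be told apart. Antibody hashtags marked the mouse and the tissue, which was the ventricular-subventricular zone (vSVZ) or a pool of olfactory bulb, rostral migratory stream and striatum (RoB). From the vSVZ eYFP+ and GLAST+ cells were sorted, and from the RoB eYFP+ cells and eYFP- cells low in PSA-NCAM, after removal of cells positive for CD45, Ter119 or O4.

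After filtering, 18055 cells remained (5820 and 2396 in the WT libraries and 6461 and 3378 in the KO libraries, young first), with median depths of 5026 to 7393 UMIs per cell. A hashtag could be assigned to 5815 of them (32.2%), with shares between 10.3% in transit-amplifying (TAP)-like cells and 99.7% in microglia-like cells. Levels are given as CPM, the UMIs of a gene per 1000000 UMIs summed over the cells. Values per library use all cells, whereas values per mouse use cells with a hashtag and are listed with young mice first. The libraries shared 30 cell barcodes. Classes were named from fixed markers, and the 4 receptor genes took no part in the clustering. In microglia-like, endothelium-like, neuroblast-like, olfactory ensheathing glia-like and quiescent NSC/astrocyte-like cells, every fixed marker was higher than in the other cells. In activated NSC-like cells 5 of 7 were, and Fabp7 and Pcna were not. The sort excluded CD45+ cells, yet the 329 microglia-like cells carried Ptprc (the CD45 gene) at 269.6 CPM against 0.0865 in the other cells. Ptprc RNA does not measure the surface CD45 that the gate used, and how these cells passed it was not tested. The paper counts microglia among the cells it profiled. Quiescent NSCs and parenchymal astrocytes were not separated by the markers and are described together as quiescent NSC/astrocyte-like cells. A pair of clusters was called by a leading gene. The Ung-rich cluster was led by DNA replication genes, and the Clca3a1-rich cluster had 6 of 7 ensheathing glia markers raised, but its leading genes included the endothelial marker Cldn5.

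The regions upstream of the type-II receptor genes are printed because these partners, both highest in microglia-like cells, had the reverse order between quiescent and neuroblast-like cells, as described below. They are the 250 bases before the annotated start in RefSeq on GRCm38.p6, on the + strand, at chr10:19591699-19591948 for Ifngr1 and chr16:91546809-91547058 for Ifngr2. Capitals mark the GC box (GGGCGG) and the CCAAT box (CCAAT), searched on both strands, with CCGCCC and ATTGG as the same letters on the other strand. Neighbouring GC boxes in Ifngr2 overlap or touch.
Ifngr1: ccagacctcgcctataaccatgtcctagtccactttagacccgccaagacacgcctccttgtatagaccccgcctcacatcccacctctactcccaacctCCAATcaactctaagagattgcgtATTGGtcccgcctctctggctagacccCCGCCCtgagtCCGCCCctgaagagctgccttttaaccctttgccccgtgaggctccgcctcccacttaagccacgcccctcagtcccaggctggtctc
Ifngr2: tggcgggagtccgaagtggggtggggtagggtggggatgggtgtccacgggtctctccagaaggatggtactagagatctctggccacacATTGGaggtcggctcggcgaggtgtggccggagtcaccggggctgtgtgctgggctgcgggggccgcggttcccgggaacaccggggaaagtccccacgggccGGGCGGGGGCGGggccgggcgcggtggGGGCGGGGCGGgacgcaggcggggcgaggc
Ifngr1 held 2 GC boxes and 2 CCAAT boxes in 250 bases with a GC content of 59.2%. Ifngr2 held 4 GC boxes and 1 CCAAT box, with a GC content of 74.0% and 25 CG pairs against 11 in Ifngr1. The same window of Ifnar1 held 2 GC boxes, and that of Ifnar2 held none. Over the windows of 27025 genes, 32.9% held a GC box and 34.5% a CCAAT box, and the median number of CG pairs was 6. The TATA box (TATAAA) was in 13% of all windows and in none of the 4. A match of letters is a description and no evidence of binding.

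Ifngr1, which encodes the ligand-binding chain of the interferon gamma receptor, had the widest range of levels. In WT libraries, in which the gene is intact, microglia-like cells held 827 (young) and 708 (old) CPM, and their mean of 768 was above every other class. The Clca3a1-rich cluster followed with 175 and 143 CPM, then oligodendrocyte precursor (OPC)-like cells with 104 and 118, from only 28 cells. Olfactory ensheathing glia-like cells, which wrap olfactory axons, held 92.4 and 90.9 CPM. Quiescent NSC/astrocyte-like cells held 89.0 and 86.1 CPM. Both of these values were below those of the ensheathing glia, by less than the counting intervals (82.0 to 96.3 and 79.8 to 92.7 in the quiescent cells).

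Ifngr1 was lower in the later stages of the neurogenic lineage than in the quiescent NSC/astrocyte-like class. That class does not separate NSCs from astrocytes, so the first step cannot be read as one along the lineage alone. Its eYFP-rich Thbs4 cluster, described below, held 53.3 CPM in WT young and 36.3 in WT old. Activated NSC-like cells, which carry Egfr, held 27.3 CPM in WT young and 26.5 in WT old. The Ung-rich cluster held 13 and 13.4 CPM. TAP-like cells held 9.41 and 4.51, and neuroblast-like cells, the migrating neuronal precursors, held 8.17 and 8.53. The WT old values rest on 6 UMIs in 32 Ung-rich cells and on 2 UMIs in 33 TAP-like cells. The mean was 87.5 ± 2.03 (SD, n = 2 libraries) in quiescent NSC/astrocyte-like cells and 8.35 ± 0.251 in neuroblast-like cells. The ranges of the 2 libraries did not overlap between quiescent, activated and Ung-rich cells, whereas those of TAP-like and neuroblast-like cells overlapped. The WT endothelium-like cells (70.0 ± 51.0 CPM) rested on 36 cells and 10 Ifngr1 UMIs, so that their place in the order is uncertain.

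The share of cells with an Ifngr1 UMI gave the same order. It was 92.0% and 90.7% in WT microglia-like cells, 34.5% and 42.6% in quiescent NSC/astrocyte-like cells, and 3.14% and 5.05% in neuroblast-like cells (WT young and WT old). Among quiescent cells of KO mice, where the gene was targeted, it was 2.27% and 2.69%. With every cell thinned to 1000 UMIs, the shares in WT old were 46.5%, 7.17% and 1.26% in the same order, and those in WT young quiescent and neuroblast-like cells were 7.73% and 0.874%. Median depths of these WT classes were between 4141 and 7474 UMIs per cell.

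**Figure D1:**
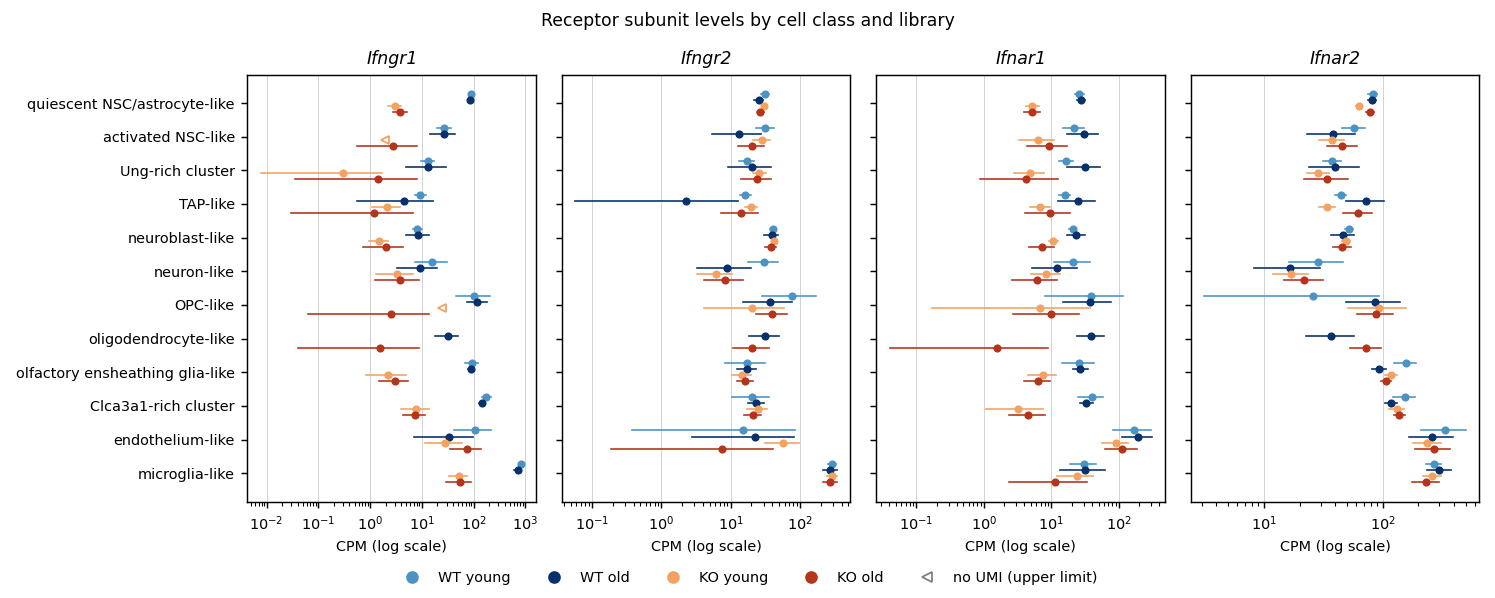
CPM (log axis) of the 4 receptor genes in each cell class, with 1 point per library of at least 10 cells and bars for the exact 95% Poisson interval, which covers counting error only; open triangles are upper limits where no UMI was found. Ifngr1 in WT libraries ran from 708 to 827 in microglia-like cells down to 8.17 to 8.53 in neuroblast-like cells, whereas Ifngr2 was higher in neuroblast-like than in quiescent NSC/astrocyte-like cells in all 4 libraries.

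Ifngr2, the partner chain, could be read in all 4 libraries because it was not targeted. It was highest in microglia-like cells, with 289 and 274 CPM in the WT libraries and 291 and 272 in the KO libraries (young first). In neuroblast-like cells the 4 libraries held 40.4, 38.9, 42.8 and 38.2 CPM, and in quiescent NSC/astrocyte-like cells they held 31.2, 25.4, 30.8 and 26.9. Neuroblast-like cells were thus above quiescent cells in 4 of 4 libraries (40.1 ± 2.05 against 28.6 ± 2.91, SD, n = 4), the reverse of the order for Ifngr1. Between these stages the levels were lower or similar: 23.3 ± 8.17 in activated NSC-like cells, 21.8 ± 4.0 in the Ung-rich cluster and 13.1 ± 7.60 in TAP-like cells. These values are shares of all UMIs, and the stages differed in depth. Clusters of activated NSC-like, Ung-rich and TAP-like cells had median depths of 10263 to 13559 UMIs per cell. Those of quiescent cells had 6074 to 8012, and those of neuroblast-like cells 4442 to 6175. Levels per cell were not compared. Olfactory ensheathing glia-like cells held 16.2 ± 1.16 CPM, and neuron-like cells held 13.4 ± 11.2, with overlapping ranges. OPC-like cells had the second highest mean, 43.9 ± 24.3, but ranged from 20.1 to 77.9 over 82 cells.

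Ifnar1, the chain that holds TYK2, was highest in endothelium-like cells, which line blood vessels, with 167 and 193 CPM in WT young and WT old. These values come from 11 and 17 UMIs in 14 and 22 cells, and their intervals are 83.2 to 298 and 112 to 308. The other 11 classes lay close together, between means of 16.7 and 38.9 CPM. The Clca3a1-rich cluster held 39.5 and 33.1, microglia-like cells 30.7 and 31.3, quiescent NSC/astrocyte-like cells 26.1 and 27.5, and neuroblast-like cells 20.7 and 23.4. From the quiescent cells down to neuron-like cells, the ranges of neighbouring classes overlapped. Ifnar1 thus showed no steps between these classes of the size seen for Ifngr1.

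Ifnar2, the chain that holds JAK1 in the type-I receptor, was high in endothelium-like cells (275 ± 41.2 CPM, SD, n = 4) and in microglia-like cells (264 ± 27.8), and their ranges overlapped. The Clca3a1-rich cluster held 153 and 117 CPM in WT young and WT old, and 131 and 138 in the KO libraries. Olfactory ensheathing glia-like cells held 156 and 93.9 in the WT libraries and 118 and 106 in the KO libraries, which overlapped with that cluster. Quiescent NSC/astrocyte-like cells held 82.2, 82.0, 63.4 and 78.3 CPM. Neuroblast-like cells held 51.8, 46.4, 49.1 and 45.5, below the quiescent cells in every library. The lowest class was neuron-like cells with 21.0 ± 5.53 CPM.

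The quiescent NSC/astrocyte-like class consisted of 6 clusters, and the one led by Thbs4 stood apart in Ifngr1. Thbs4 encodes thrombospondin 4, which is found in NSCs of the vSVZ, and eYFP was detected in 50.6% of the cells of this cluster against 4.34% to 10.4% in the other 5. In WT young the Thbs4 cluster held 53.3 Ifngr1 CPM (43.5 to 64.6), and in WT old 36.3 (22.2 to 56.1). The clusters led by Cldn10, Crym, Igfbp2 and Igsf1 held 94.8 to 127 in WT young and 86.4 to 96.4 in WT old, and in neither library did their intervals reach that of the Thbs4 cluster. The small cluster led by 1500015O10Rik lay between them (70.6 and 49.4), with intervals that overlapped the Thbs4 cluster. The Ifngr1 level of the Thbs4 cluster lay between those of the other quiescent clusters and of the activated NSC-like cells. In WT old its interval included the 26.5 CPM of the activated NSC-like cells.

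The other subunits separated the Thbs4 cluster less. Ifngr2 was 21.2, 21.8, 18.4 and 17.6 CPM there (both WT libraries, then both KO libraries, young first), and between 21.1 and 48.9 in the other clusters. Ifnar2 was 74.5, 59.9, 45.8 and 43.5, the lowest of the 6 clusters in each library. Ifnar1 was 23.3 in WT young and 21.8 in WT old, within the range of the other clusters (10.9 to 31.7). No test was made between clusters, since they were drawn on the same cells.

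**Figure D2:**
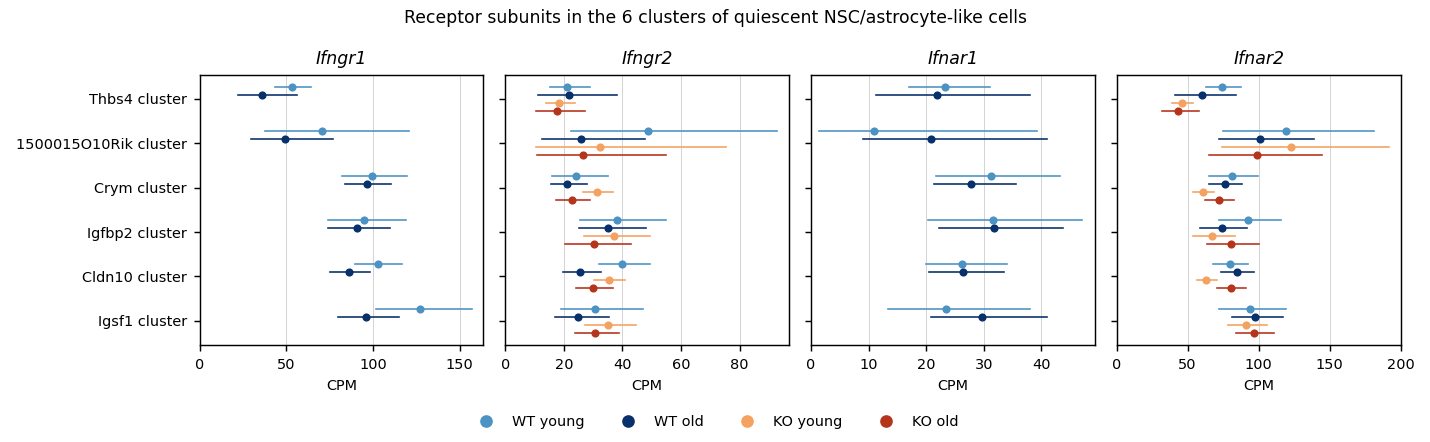
CPM of the receptor genes in the 6 clusters that make up the quiescent NSC/astrocyte-like class, each named by its leading gene, with 1 point per library and bars for the exact 95% Poisson interval; KO libraries are left out for Ifngr1 and Ifnar1. The Thbs4 cluster held 53.3 and 36.3 Ifngr1 CPM in WT young and WT old, against 86.4 to 127 in the Cldn10, Crym, Igfbp2 and Igsf1 clusters.

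The balance of the chains of each receptor was then expressed as a ratio of UMIs over both WT libraries. Because 3′ counts of different genes are not on 1 scale, only the change of a ratio between classes is meaningful. For the type-II receptor, quiescent NSC/astrocyte-like cells had 3.12 Ifngr1 UMIs per Ifngr2 UMI (95% counting interval 2.79 to 3.49). The ratio was 1.02 (0.684 to 1.52) in activated NSC-like cells, with 0.870 in WT young and 2.0 (0.755 to 5.86, from 14 and 7 UMIs) in WT old. It was 0.747 (0.519 to 1.07) in the Ung-rich cluster and 0.586 (0.438 to 0.781) in TAP-like cells. In neuroblast-like cells it was 0.205 (0.166 to 0.250), with 0.202 in WT young and 0.219 in WT old. Neuron-like cells were higher again at 0.652 (0.316 to 1.30), from 15 and 23 UMIs. Microglia-like cells, despite much higher levels of both chains, had a ratio of 2.79 (2.43 to 3.22), whose interval overlapped that of the quiescent cells. The highest ratios were in the Clca3a1-rich cluster at 6.49 (5.07 to 8.43) and in olfactory ensheathing glia-like cells at 5.34 (3.94 to 7.38), where Ifngr2 was low.

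For the type-I receptor the ratio over both WT libraries lay between 0.327 and 0.479 from quiescent to neuroblast-like cells. In neuron-like cells it was 0.741 (0.394 to 1.37), from 20 and 27 UMIs. Ifnar1 per Ifnar2 was 0.327 (0.291 to 0.366) in quiescent NSC/astrocyte-like cells, 0.462 (0.321 to 0.656) in activated NSC-like cells, 0.479 (0.361 to 0.631) in the Ung-rich cluster, 0.356 (0.292 to 0.434) in TAP-like cells and 0.413 (0.360 to 0.473) in neuroblast-like cells. It was lowest in microglia-like cells at 0.112 (0.0738 to 0.163), where Ifnar2 was high and Ifnar1 was not. Endothelium-like cells, with high levels of both chains, had a ratio of 0.622 (0.374 to 1.02). The libraries were less alike in the rarer stages, with ratios of 0.381 in WT young and 0.80 (0.388 to 1.62) in WT old for activated NSC-like cells and 0.441 and 0.778 (0.358 to 1.66) for the Ung-rich cluster. In olfactory ensheathing glia-like cells they were 0.165 and 0.286.

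**Figure D3:**
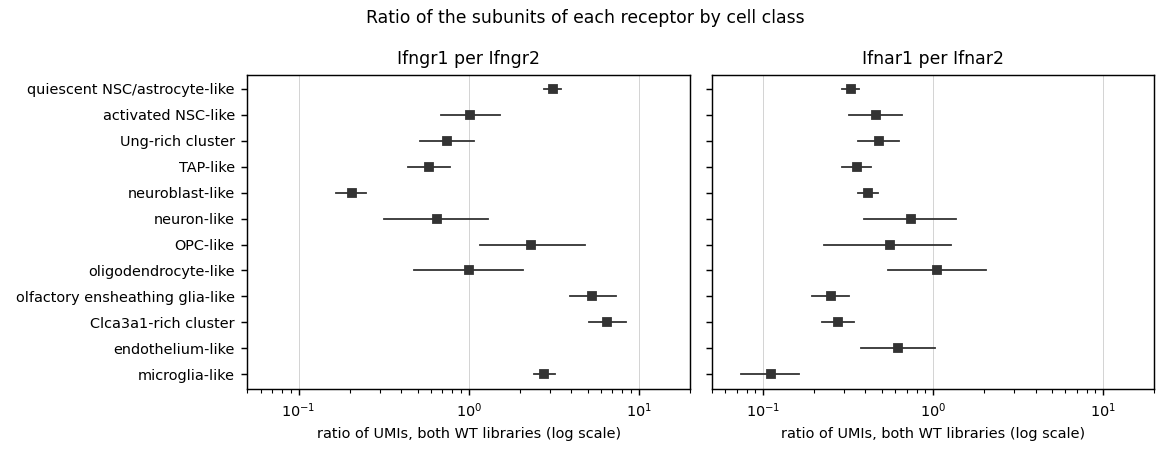
Ratio of UMIs of the chains of the type-II receptor (left) and type-I receptor (right) in both WT libraries together, on a log axis, with 95% counting intervals; classes with too few UMIs have no point. Ifngr1 per Ifngr2 went from 3.12 in quiescent NSC/astrocyte-like cells to 0.205 in neuroblast-like cells, while Ifnar1 per Ifnar2 was 0.327 and 0.413.

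Position in the brain was compared within mice, for quiescent NSC/astrocyte-like cells with a vSVZ or a RoB hashtag. The tissues were sorted with different gates, so position and gate cannot be told apart, and the part of cluster makeup was not tested. Ifnar2 averaged 72.3 CPM in the vSVZ and 85.4 in the RoB, and it was higher in the vSVZ in 1 of 8 mice. The difference of -13.1 ± 14.6 (SD, n = 8 mice) did not pass a 2-sided exact permutation test by sign flips after adjustment over the 4 genes (p = 0.0234, adjusted p = 0.0938). Ifngr2 averaged 26.9 and 28.9, with 3 of 8 mice higher in the vSVZ (exact permutation p = 0.477, adjusted p = 0.625). For the targeted genes only the 4 WT mice were used, and the smallest p possible was 0.125. Ifngr1 averaged 72.3 in the vSVZ and 89.3 in the RoB, with 1 of 4 mice higher in the vSVZ (exact permutation p = 0.250), and Ifnar1 averaged 25.4 and 21.7 (exact permutation p = 0.625).

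The targeted genes were then compared between genotypes per mouse, in 5 classes with at least 20 cells in each of 2 mice per group. In quiescent NSC/astrocyte-like cells Ifngr1 was 83.5, 67.4, 82.2 and 79.1 CPM in the WT mice and 2.95, 3.60, 2.06 and 6.49 in the KO mice. All WT mice were far above all KO mice, and the log2 change from WT to KO was -4.48 (SE 0.30) in young and -4.15 (SE 0.25) in old mice (edgeR quasi-likelihood test, Benjamini-Hochberg adjusted p = 4.0e-09 and 5.94e-10). In microglia-like cells Ifngr1 was 872 and 818 in the WT young mice and 48.4 and 53.3 in the KO young mice, a log2 change of -4.05 (SE 0.30, edgeR adjusted p = 8.91e-29).

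Ifngr1 also fell in olfactory ensheathing glia-like cells and in the Clca3a1-rich cluster. In olfactory ensheathing glia-like cells the WT mice held 60.3, 132, 107 and 77.8 CPM (young first) and the KO mice 2.38, 1.46, 1.14 and 3.52. The log2 changes were -5.51 (SE 0.60) in young and -4.98 (SE 0.41) in old mice, with edgeR adjusted p of 2.27e-05 and 2.89e-08. In the Clca3a1-rich cluster they were -4.48 (SE 0.39) and -3.95 (SE 0.27), with edgeR adjusted p of 6.84e-08 and 1.06e-10. In neuroblast-like cells Ifngr1 was too low to be tested in any comparison.

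Ifnar1 fell less clearly. In quiescent NSC/astrocyte-like cells it was 22.7, 24.9, 25.1 and 27.1 CPM in the WT mice and 3.37, 4.80, 4.11 and 2.60 in the KO mice. The groups did not overlap, and the log2 changes were -2.52 (SE 0.33) and -2.91 (SE 0.30), with edgeR adjusted p of 9.58e-05 and 8.95e-06. In the Clca3a1-rich cluster the change passed the test in old mice (log2 change -2.62, SE 0.44, edgeR adjusted p = 0.00170) and missed it in young mice (-2.92, SE 0.72, edgeR adjusted p = 0.0831). The call in old mice was lost without WT old mouse 2 (adjusted p = 0.0503) and without KO old mouse 1 (adjusted p = 0.0900), and the call in young mice was gained without WT young mouse 1 (adjusted p = 0.0333), without the filter on low counts (0.0137) and with predicted doublets kept (0.0317). In olfactory ensheathing glia-like cells the log2 changes of -1.49 (SE 0.69) and -1.83 (SE 0.47) missed the test (edgeR adjusted p = 0.524 and 0.152), though the latter passed without WT young mouse 2 (adjusted p = 0.0427). With cells clustered at the coarser resolution of 0.5 both passed, with -2.09 in young and -2.24 in old mice (adjusted p = 0.0477 and 5.93e-04). At that resolution, here and below, the ensheathing glia-like class held 2024 cells and had Clca3a1 among its leading genes. No separate Clca3a1-rich cluster was found there, so these calls are not for the same cells.

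Neuroblast-like cells gave no call for Ifnar1 either. The WT mice held 18.9, 9.21, 24.1 and 34.4 CPM, and the KO mice 11, 16.2, 0 and 5.49. The young groups overlapped (log2 change -0.06, SE 0.64, edgeR adjusted p = 0.985), and the old groups did not (-2.94, SE 0.92, edgeR adjusted p = 0.294). Only 10.8% of neuroblast-like cells carried a hashtag, so that the values per mouse rest on 31 to 132 cells.

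**Figure D4:**
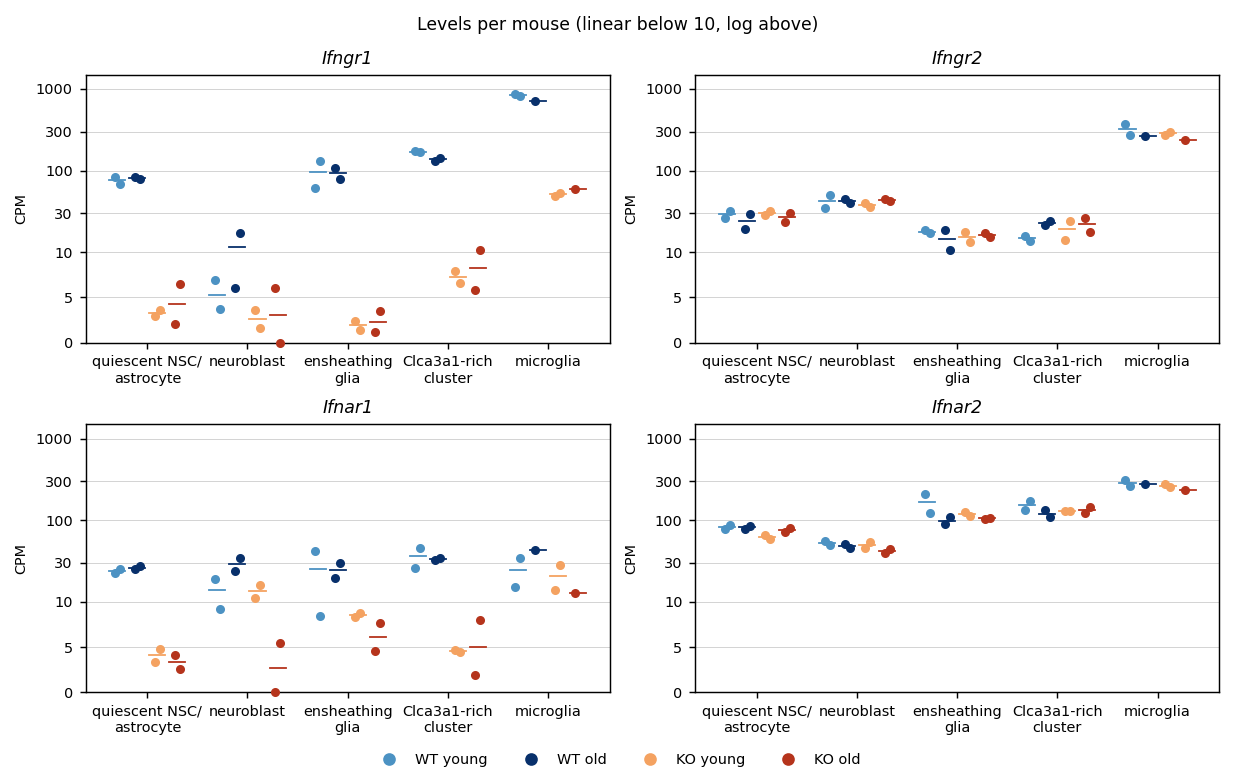
CPM of each receptor gene per mouse (points, coloured by group, with bars for the group mean) in the 5 classes tested, for mice with at least 20 cells with a hashtag; the axis is linear below 10 and logarithmic above. Ifngr1 separated the genotypes in quiescent NSC/astrocyte-like, ensheathing glia-like, Clca3a1-rich and microglia-like cells, and Ifngr2 and Ifnar2 gave no call between genotypes.

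In young mice 5 of the 18 tested combinations of gene and class were called, and in old mice 5 of 15, all of them Ifngr1 or Ifnar1 and all lower in KO. Over all genes tested, the genotype comparison in young mice called 2.66% in quiescent NSC/astrocyte-like cells, 1.70% in neuroblast-like, 0.529% in microglia-like and 0.415% in olfactory ensheathing glia-like cells, and 0.388% in the Clca3a1-rich cluster. In old mice it called 0.203%, 0.148%, 0.356% and 0.376% in the same order without microglia-like cells, in which only 1 old mouse of each genotype had 20 cells.

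Residual UMIs of the targeted genes were set against WT libraries of the same age, over all cells of a class. For Ifngr1 all retained KO cells together held 6.15% of the WT level in young mice (95% counting interval 5.15 to 7.30) and 5.15% in old mice (4.22 to 6.25). The share was 3.37% and 4.44% in quiescent NSC/astrocyte-like cells, 2.44% and 3.30% in olfactory ensheathing glia-like cells, 6.25% and 7.58% in microglia-like cells, and 18.3% and 23.6% in neuroblast-like cells. The higher share in neuroblast-like cells goes with a low WT level, and the KO level there was 1.49 and 2.01 CPM. Near-empty barcodes, which hold RNA freed into the suspension, carried Ifngr1 at 3.74 CPM (2.05 to 6.28) in the KO old library, close to the 3.82 in its quiescent cells and well below the 53.6 in its microglia-like cells. In the KO young library no Ifngr1 UMI was found in 217533 near-empty UMIs, which allows a level of up to 17.0 at 95%.

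More Ifnar1 than Ifngr1 signal remained relative to WT. All retained KO cells held 38.2% (33.7 to 43.1) of the WT level in young and 22.9% (19.2 to 27.4) in old mice. Quiescent NSC/astrocyte-like cells held 20.1% and 18.8%, and the Clca3a1-rich cluster 8.24% and 13.8%. Microglia-like cells of young mice held 77.8% (35.1 to 164), from 22 UMIs in WT and 12 in KO, so that no loss was detectable there. Neuroblast-like cells held 51.6% (42.2 to 62.9) and 31.4% (17.9 to 53.5). In endothelium-like cells, where Ifnar1 was highest, the KO libraries still held 90.0 (56.4 to 136) and 112 (62.5 to 184) CPM, which was 54.0% and 58.0% of WT with intervals that reached past 100%. Near-empty barcodes carried Ifnar1 at 18.4 CPM (5.01 to 47.1, from 4 UMIs) in the KO young and 13.4 (9.93 to 17.6) in the KO old library. These levels were above those of all retained KO cells (8.08 and 6.56) and of KO quiescent cells (5.24 and 5.16), and the part of freed RNA in the remaining signal was not tested. The WT near-empty barcodes held 13.3 and 25.5 CPM. Ifngr1 in KO endothelium-like cells was 28.6 and 74.5 CPM from 7 and 10 UMIs, against 106 and 34.0 from 7 and 3 UMIs in WT, so that no loss was detectable there at this depth. Counts near the 3′ end do not show whether a transcript runs through the altered part of the gene, and no source used here places the change within the genes. Among the features counted was also a neomycin or kanamycin resistance cassette, singled out after its values were seen, and its level in all retained cells was 40.3, 47.6, 39.9 and 44.9 CPM (both WT libraries, then both KO libraries, young first). It was similar in both genotypes and so does not check the alleles.

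**Figure D5:**
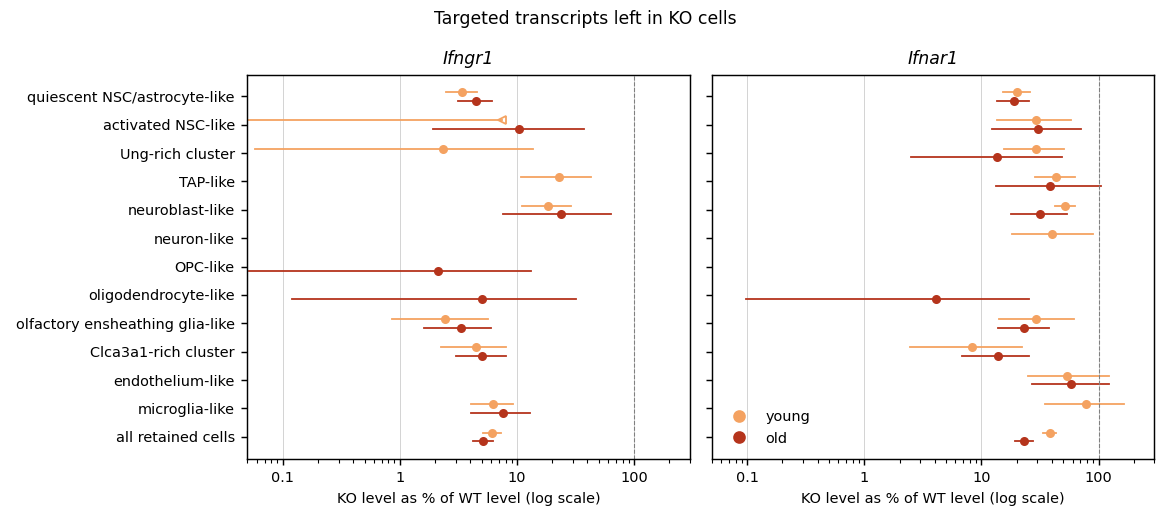
Level of Ifngr1 (left) and Ifnar1 (right) in KO cells as a percent of the WT level of the same age and class (log axis, young and old mice), with exact conditional counting intervals cut at the left edge of the plot; the open triangle is an upper limit where KO cells had no UMI, and the dashed line is the WT level. Over all retained cells 6.15% and 5.15% of Ifngr1 remained, against 38.2% and 22.9% of Ifnar1.

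The partner chains Ifngr2 and Ifnar2 were not targeted, and neither was called between genotypes in any of the classes tested. In classes not tested, some counting intervals excluded the WT level, in both directions. In young mice Ifngr2 was 20.3% of WT (9.07 to 44.4) in neuron-like cells and 152% (109 to 213) in the Ung-rich cluster. Ifnar2 was 77.0% (63.9 to 92.5) in young TAP-like cells. These intervals cover counting error only. Ifngr2 in quiescent NSC/astrocyte-like cells was 25.9, 32.1, 19.2 and 29.4 CPM in the WT mice and 28.6, 32.0, 23.6 and 30.2 in the KO mice. The groups overlapped, and the log2 changes from WT to KO were 0.05 (approximate 95% interval -0.40 to 0.50) in young and 0.15 (-0.26 to 0.57) in old mice (edgeR adjusted p = 0.949 and 0.885). In microglia-like cells of young mice, the log2 change was -0.11 for Ifngr2 (-0.60 to 0.37) and -0.11 for Ifnar2 (-0.61 to 0.38), with edgeR adjusted p of 0.966 and 0.968. Ifnar2 in quiescent NSC/astrocyte-like cells was 77.0 and 87.3 in WT young and 65.3 and 58.8 in KO young mice, which did not overlap, yet the log2 change of -0.41 (-0.69 to -0.14) missed the test (unadjusted p = 0.00757, edgeR adjusted p = 0.128). In old mice the groups overlapped and the change was -0.08 (-0.32 to 0.16, edgeR adjusted p = 0.898). Ifnar2 in quiescent cells was the only partner chain value with an unadjusted p under 0.05, and DESeq2 also made no call for these genes where it gave an adjusted p.

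Age gave no call for the subunits in WT mice: 0 of 15 combinations passed the edgeR test, 1 of them had an unadjusted p under 0.05, and DESeq2 called 0. The background was 17.0% of all genes in quiescent NSC/astrocyte-like, 3.23% in neuroblast-like and 0.415% in olfactory ensheathing glia-like cells and 1.85% in the Clca3a1-rich cluster. The age groups also differed in reaction and, for WT mice, in the median depth of the library (5026 and 7393) and in chase. The part of these in the background was not tested. In quiescent cells the log2 change from young to old was 0.10 (-0.24 to 0.44) for Ifngr1, -0.25 (-0.71 to 0.22) for Ifngr2, 0.12 (-0.36 to 0.59) for Ifnar1 and -0.02 (-0.28 to 0.25) for Ifnar2. The edgeR adjusted p-values of these genes lay between 0.530 and 0.955. For Ifngr1, the clusters that make up the quiescent class are set side by side below. Ifnar2 in olfactory ensheathing glia-like cells had the unadjusted p under 0.05 (209 and 123 CPM in young against 90.3 and 108 in old mice, log2 change -0.73, SE 0.23, edgeR adjusted p = 0.170). With mice of at least 10 microglia-like cells, a limit lowered after seeing the data, the age comparison in WT microglia-like cells gave log2 changes of -0.30 (SE 0.22) for Ifngr1, -0.20 (SE 0.28) for Ifngr2 and 0.06 (SE 0.27) for Ifnar2 (edgeR adjusted p = 0.647, 0.831 and 0.957).

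Summed over all retained cells the WT libraries differed more, and the makeup of the libraries differed as well. Ifngr1 was 46.9 CPM in the whole WT young library and 85.4 in the whole WT old library, while Ifnar2 was 62.4 and 83.0 and Ifngr2 was 34.3 and 27.4. Neuroblast-like cells, low in Ifngr1 and high in Ifngr2, were 2862 of 5820 WT young cells and 317 of 2396 WT old cells. Within quiescent NSC/astrocyte-like and neuroblast-like cells Ifngr1 differed between the same libraries by less than the counting intervals. The clusters within the quiescent class also differed in share. The Thbs4 cluster, low in Ifngr1, made up 363 of 1268 quiescent cells in WT young and 74 of 1074 in WT old. Within every quiescent cluster the old library had less Ifngr1, though the counting intervals overlapped. Young and old WT values were 103 and 86.4 CPM (Cldn10), 99.7 and 96.4 (Crym) and 53.3 and 36.3 (Thbs4). They were 127 and 96.2 (Igsf1), 94.8 and 90.6 (Igfbp2) and 70.6 and 49.4 (1500015O10Rik) in the others. The part of makeup in the differences between whole libraries, and in the similar Ifngr1 levels of the whole quiescent class, was not tested.

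In KO mice age gave 0 calls among 15 combinations with edgeR, 2 of which had an unadjusted p under 0.05, and 0 with DESeq2. The background was 4.25% in quiescent NSC/astrocyte-like, 0.459% in neuroblast-like and 0.166% in olfactory ensheathing glia-like cells and 0.235% in the Clca3a1-rich cluster. The lowest adjusted p was for Ifnar2 in quiescent cells (log2 change 0.31, SE 0.13, edgeR adjusted p = 0.198). The difference between the age changes in KO and WT mice was also not called for any subunit (0 of 15 with edgeR, 1 with an unadjusted p under 0.05, and 0 with DESeq2). Its background was 1.21%, 0.578%, 0.0237% and 0.0235% in the same order of classes. For Ifnar2 in quiescent cells this difference was 0.33 on the log2 scale (-0.04 to 0.69, edgeR adjusted p = 0.450).

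Genes that act next to the receptors were followed from a list of 20 kinases, STATs, regulators and ligands. In olfactory ensheathing glia-like cells of old mice Irf9, which encodes part of the transcription factor complex downstream of the type-I receptor, fell from WT to KO, in a comparison that called 0.356% of all genes. It was 34.8 and 51.5 CPM in old WT mice and 10.3 and 14.1 in old KO mice, a log2 change of -1.70 (SE 0.36, edgeR adjusted p = 0.0288). Irf9 also fell in the Clca3a1-rich cluster in old mice, with a log2 change of -1.54 (SE 0.31, edgeR adjusted p = 0.0150). Irf9 in ensheathing glia-like cells missed the test without WT old mouse 2 (-1.38, edgeR adjusted p = 0.560), KO old mouse 1 (-1.55, 0.182) or KO old mouse 2 (-2.00, 0.0782), when cells were assigned to mice only at a hashtag posterior of at least 0.95 (0.144) and by DESeq2 (0.374). In the Clca3a1-rich cluster, Irf9 missed it without WT old mouse 1 (-1.43, edgeR adjusted p = 0.318), WT old mouse 2 (-1.65, 0.0701), KO old mouse 1 (-1.42, 0.20) or KO old mouse 2 (-1.69, 0.0952) and by DESeq2 (0.916). The median log2 change of the 14 listed genes tested was 0.10 in ensheathing glia-like cells and -0.07 in the cluster, against -0.01 and 0.00 over all genes.

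In young mice the list gave 1 call among 14 genes tested in ensheathing glia-like cells, where 0.415% of all genes were called. Socs1, an inhibitor of JAK signalling that interferons induce, was 139 and 195 CPM in the WT mice and 58.3 and 42.5 in the KO mice (log2 change -1.71, SE 0.37, edgeR adjusted p = 0.0364). This call was lost without WT young mouse 2 (-1.40, edgeR adjusted p = 0.316), KO young mouse 1 (-1.96, 0.0654) or KO young mouse 2 (-1.50, 0.244), with the stricter hashtag assignment (0.0624) and with cells clustered at the coarser resolution of 0.5 (0.183). Neither microglia-like nor neuroblast-like cells had a call on the list between genotypes, with 14 and 8 genes tested. Irf9 in microglia-like cells of young mice was 45.9 and 42.7 CPM in WT (6 and 25 UMIs) and 13.8 and 14.0 in KO (2 and 5 UMIs). Its log2 change of -1.66 (SE 0.81) missed the test (edgeR adjusted p = 0.669).

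In quiescent NSC/astrocyte-like cells Irf9 had log2 changes from WT to KO of -0.64 in young mice (SE 0.35, edgeR adjusted p = 0.386) and -0.81 in old mice (SE 0.29, edgeR adjusted p = 0.379), and neither passed the test. Of the 14 genes tested there, Rack1, which encodes a ribosomal scaffold protein that also binds the type-I receptor, was lower in KO young mice (-0.46, SE 0.10, edgeR adjusted p = 0.00777), and no gene of the list was called in old mice. The background was 2.66% of all genes in young and 0.203% in old mice. With age in WT mice 3 of the 14 were called, a share near the background of 17.0% and so no result about the list. Stat3 rose (0.72, SE 0.20, edgeR adjusted p = 0.0147), while Rack1 fell by 0.76 (SE 0.10, edgeR adjusted p = 1.03e-05) and Socs3, an inhibitor of STAT3 signalling, fell by 1.23 (SE 0.36, edgeR adjusted p = 0.0216). None of the 14 was called with age in KO mice. The median log2 change of the 14 was -0.09 from WT to KO in young mice, -0.22 in old mice and 0.13 with age in WT mice, against -0.01, 0.00 and 0.01 over all genes. The Rack1 difference in young mice missed the test without WT young mouse 2 (-0.42, edgeR adjusted p = 0.102) or KO young mouse 1 (-0.34, 0.205), while its fall with age in WT mice kept the call without any 1 mouse. Stat3 missed it without WT young mouse 2 (0.57, edgeR adjusted p = 0.212), WT old mouse 1 (0.72, 0.0562) or WT old mouse 2 (0.77, 0.0569), and by DESeq2 (0.0826). Socs3 missed it without WT young mouse 2 (-0.90, edgeR adjusted p = 0.319) or WT old mouse 1 (-0.66, 0.182), and by DESeq2 (0.337). With cells clustered at resolution 0.5, each of these calls in quiescent cells was lost and Socs3 had a log2 change of 0.41, of the opposite sign (edgeR adjusted p = 0.733). At that resolution, here and below, a cluster of 1432 cells led by Ecel1 and Thbs4 was unnamed and lay outside the quiescent class. These values are therefore not for the same cells.

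Among 10 related receptors of the same structural family or of STAT3-activating cytokines, 5 were tested in quiescent NSC/astrocyte-like cells and none was called between genotypes. With age in WT mice, a comparison that called 17.0% of all genes, 2 of the 5 were called. Lifr, the receptor of leukaemia inhibitory factor, rose by 1.26 on the log2 scale (SE 0.14, edgeR adjusted p = 2.17e-06), and F3, tissue factor, rose by 0.41 (SE 0.07, edgeR adjusted p = 4.39e-04). F3 also rose with age in KO mice (0.40, SE 0.07, edgeR adjusted p = 0.00217), where the background was 4.25%. The rise of Lifr passed the test under every alternative. Both F3 calls were lost at resolution 0.5 (0.05 in WT and 0.18 in KO mice), where the class lacked the cluster led by Ecel1 and Thbs4. The median log2 change of the 5 receptors was 0.37 from WT to KO in young mice, 0.02 in old mice and 0.41 with age in WT mice, against -0.01, 0.00 and 0.01 over all genes. The genes flanking the targeted loci were examined as well, since they lie beside the altered alleles. Of 14 other genes that start within 250 kb of the start of Ifnar1, 8 were tested in quiescent cells, and 1 of them was called between genotypes in young mice, against 2.66% of all genes. Son, which encodes a splicing factor, was higher in KO young mice (0.37, SE 0.07, edgeR adjusted p = 0.00557) and not called in old mice. The call was lost without WT young mouse 2 (0.32, edgeR adjusted p = 0.0813) or KO young mouse 1 (0.37, 0.0562). Son also rose with age in WT mice (0.52, SE 0.07, edgeR adjusted p = 2.70e-05), as 1 of the 8 in the comparison with the background of 17.0%. None of the 6 genes so placed around Ifngr1 passed the filter on low counts in any class tested.

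The genes most like each subunit were sought over sums of class and library with at least 50 cells, as a Pearson correlation of log2(CPM + 5). These sums share libraries and depth, and the values are a description. Ifngr1 was closest to Tapbp (r = 0.964), which helps to load peptides on MHC class I, and to Sppl2a (0.963), Hexa (0.963), Ctsl (0.960) and Scamp2 (0.958), over 15 WT sums from 10 classes. Hexa and Ctsl encode lysosomal enzymes. Ifnar2 was closest to Scamp2 (0.932), Elf1 (0.918), Pigv (0.914), Sppl2a (0.914) and Cmtm6 (0.914) over 32 sums. Ifnar1 was closest to Ncoa4 (0.908), Cradd (0.892), Arap1 (0.877), Rab33b (0.877) and Scarb2 (0.873), and endothelium-like cells, where it was highest, were too few to enter. Ifngr2 was closest to Tgfbr1 (0.880), Twf2, Amz1, Lst1 and Inpp5d, the last of these at 0.877. Between the members, Ifngr1 and Ifnar2 were the most alike (r = 0.902 over the WT sums), whereas Ifngr1 and its own partner Ifngr2 had r = 0.534.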

How the data were processed

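Single-cell expression was measured in 4 libraries, with 1 hashtag library each. 1 further sample had no group in the labels and was not used. The authors removed index-hopped reads and counted expression with kallisto and bustools (submitters' notes: build GRCm38), and hashtags with CITE-seq-Count. The annotation they used is not given in the sources used here. In all, the deposited matrix held UMI counts for 844265 barcodes and 32287 gene IDs, of which 32158 were named through GENCODE vM21, and the deposited hashtag table held counts for 4 hashtags. The members and gene lists were chosen with earlier results of these data known.

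Barcodes with 100 to 6000 genes, with 1000 to 20000 UMIs and with less than 10% of mitochondrial UMIs counted as cells, and 335 predicted doublets (Scrublet method, scanpy 1.11.5) were removed. A multinomial mixture assigned hashtags. Clusters (leidenalg 0.10.2, resolution 1, 2000 variable genes without interferon and receptor genes) were named from fixed markers, and a cluster whose leading genes went against its name kept a gene's name. Levels are CPM over all cells of a class and library, with exact 95% Poisson intervals that cover counting error only. Low counts limit precision: in quiescent cells of WT young, 3 UMIs correspond to 0.437 CPM.

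Sums of UMIs for each mouse within a class entered edgeR 4.0.16 (R 4.3.3), with filterByExpr, TMM factors, a quasi-likelihood fit for each class that held all mice with at least 20 cells, and Benjamini-Hochberg adjustment over all genes tested, with calls at adjusted p under 0.05. Nothing in the labels beyond the hashtag number separates the mice, and p-values measure the spread between 2 mice a group. Standard errors are the log2 change over the root of F, and the 95% intervals of changes are the normal ones from them. The tests were checked on simulated data. Alternatives were RLE factors, no filter, DESeq2 1.42.0, leaving out each mouse, a hashtag posterior of at least 0.95, resolution 0.5, doublets kept, and, added after seeing the data, vSVZ cells only and microglia-like sums of at least 10 cells. Genes named were the 4 subunits, list and flanking genes past the test, and the 5 genes most like each subunit. Values of some listed genes are not reported here.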

Additional observations from a re-analysis of the deposited data

Results flagged for a closer look

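For 2 genes of the lists around the receptors, the change with age differed between genotypes in quiescent NSC/astrocyte-like cells by a test of the difference itself (edgeR quasi-likelihood interaction, KO minus WT). They were among 14 pathway genes, 5 related receptors and 8 flanking genes tested, and 1.21% of all genes were called in this comparison. Lifr was 45.4, 41.5, 108 and 102 CPM in the WT mice (young first) and 62.8, 56.8, 73.0 and 78.9 in the KO mice, and the difference was -0.89 on the log2 scale (SE 0.19, edgeR adjusted p = 0.0262). Rack1 was 328, 336, 204 and 193 in the WT mice and 221, 258, 216 and 209 in the KO mice, and the difference was 0.61 (SE 0.13, edgeR adjusted p = 0.0275). Both calls were lost without WT young mouse 2 (edgeR adjusted p = 0.144 for Lifr and 0.129 for Rack1), KO young mouse 1 (0.134 and 0.185), WT old mouse 1 (0.102 and 0.102), WT old mouse 2 (0.0737 and 0.164) or KO old mouse 1 (0.0569 and 0.0610), and Rack1 also without KO old mouse 2 (0.0664). Both were also lost with the stricter hashtag assignment (0.155 and 0.134) and at resolution 0.5, where the differences were -0.76 (edgeR adjusted p = 0.0870) for Lifr and 0.39 (0.379) for Rack1. At that resolution the quiescent class lacked the cluster led by Ecel1 and Thbs4, so the cells were not the same. Lifr was lost by DESeq2 (0.0554) and with vSVZ cells alone (0.0735), and Rack1 with predicted doublets kept (0.0726). Group and reaction cannot be told apart. For none of the 4 receptor subunits was this difference called.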

How the results depend on the processing

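No paired analysis was possible because the mice that share a hashtag number in different groups are different animals. The number of subunits called between genotypes in young mice was 5 and became 3 with DESeq2, which gave an adjusted p for 10 of the 18 combinations, and it ranged from 5 to 6 when a mouse was left out. In old mice it ranged from 4 to 6 when a mouse was left out, and in the 3 comparisons with age it was 0 under every alternative. Ifngr1 in all retained KO cells of young mice was 4.81% of WT among cells with a hashtag, against 6.15% in all cells, and the cause was not tested. Of 1051 refitted fold changes of single subunits, 1041 kept their side of the threshold, 3 lost the call, 7 gained it and none of those called changed direction. All 10 that changed were Ifnar1 in olfactory ensheathing glia-like cells or the Clca3a1-rich cluster. In the ensheathing glia-like cells Ifnar1 passed in old mice without a filter (edgeR adjusted p = 0.0119), and in the Clca3a1-rich cluster it missed in old mice with DESeq2 (adjusted p = 0.0734). Of 233 refits for the other genes named, 178 kept the call, 54 lost it and 1 reversed, Socs3 with age in WT quiescent cells (-1.23, and 0.41 at resolution 0.5). The quiescent class at resolution 0.5 lacked the cluster led by Ecel1 and Thbs4, and the cause of the reversal was not tested. With quiescent cells of the vSVZ alone, chosen after seeing the data, every subunit call in these cells was kept. The level that moved most was Ifngr1 in olfactory ensheathing glia-like cells, which was 126 CPM at resolution 0.5, where no Clca3a1-rich cluster was separate from them. Endothelium-like, OPC-like and oligodendrocyte-like levels rest on few cells, and depth limits what can be said of them.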
